A study of Saccharomyces cerevisiae with 6 samples.

Results

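The hexose transporters and glucose sensors of budding yeast, Saccharomyces cerevisiae, were examined as a set of 10 genes given by name. They were HXT1, HXT2, HXT3, HXT4, HXT5, HXT6, HXT7 and HXT10, which encode transporters, and SNF3 and RGT2, which encode sensors. They are 10 of the 6007 protein-coding genes found among the 9891 rows of the count table. RNA-seq had been run on 3 libraries of quiescent cells, non-dividing cells taken at day 7 from stationary cultures and purified on density gradients, and on 3 libraries of log-phase cells, which were growing at an OD600 of 0.8 to 1.0. Both states came from the strain YCH406 (MATa), grown at 30 C in the rich medium YPD with adenine and ampicillin. The strain lacks both chromosomal pairs of H2A and H2B genes, (hta1-htb1)∆::LEU2 and (hta2-htb2)∆::TRP1, and lives on plasmid copies, pSAB6 (HTA1-HTB1-URA3) and pZS145 (HTA1-Flag-HTB1::HIS3). It also carries the tagged RNA polymerase II subunit RPB3-9Myc::hphNT1 and the alleles his3∆200, leu2∆1, ura3-52 and trp1∆. The labels' protocols call the replicates biological. As this 1 strain stands for both states, whether the differences hold in other strains was not tested. Day 7 and the density gradient are given for quiescent cells only, so culture age and purification cannot be told apart from the state.

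Total counts were 8894585 to 12696572 per quiescent library and 10476761 to 14213993 per log library. Protein-coding genes took 28.1% to 41.4% of counts in quiescent libraries and 64.1% to 72.1% in log libraries. Ribosomal DNA rows took 16.2% to 38.5% in quiescent and 4.68% to 19.3% in log libraries, and its part in the levels below, which are shares of a library, was not tested. The 6 growth markers (genes of ribosomes, glycolysis, the proton pump and the cell cycle) summed to 236 to 331 normalized CPM (read counts scaled to library size and between libraries) in quiescent and 19144 to 25487 in log libraries, and none was at 0. The 6 stationary-phase markers summed to 4119 to 4934 in quiescent and 65.1 to 73.1 in log libraries. All 6 growth markers fell and all 6 stationary markers rose in quiescent cells. The stationary marker SPG1, with 5, 8 and 8 reads in log libraries, entered the test only through its quiescent values. A test could only have found it higher there. The markers thus went with the labels in every library.

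Yeast takes up glucose by facilitated diffusion through hexose transporters, members of the major facilitator family in the plasma membrane. The family is usually described by affinity: HXT1 and HXT3 encode low-affinity carriers that serve when sugar is plentiful, HXT2, HXT4, HXT6 and HXT7 encode carriers of higher affinity that serve when it is scarce, and HXT5 encodes a carrier of moderate affinity known for its expression in slow-growing and stationary cells. SNF3 and RGT2 encode relatives of the transporters that bind glucose at the cell surface and signal instead of transporting. When they bind sugar, casein kinases and a ubiquitin ligase remove the corepressors Mth1 and Std1, and the repressor Rgt1 loses its hold on the HXT promoters.

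The genes lie on R64, the build named in the submitters' processing notes. HXT4 (YHR092C, chromosome VIII, 287081 to 288811), HXT1 (YHR094C, VIII, 290913 to 292625) and HXT5 (YHR096C, VIII, 294669 to 296447) form a cluster of 9367 bases, all on the minus strand. HXT7 (YDR342C, chromosome IV, 1154216 to 1155928), HXT6 (YDR343C, IV, 1159608 to 1161320) and HXT3 (YDR345C, IV, 1162957 to 1164660) form a second cluster of 10445 bases on the minus strand. HXT2 (YMR011W) lies at 288079 to 289704 on chromosome XIII, HXT10 (YFL011W) at 112345 to 113985 on VI, SNF3 (YDL194W) at 111580 to 114234 on IV and RGT2 (YDL138W) at 213351 to 215642 on IV, all on the plus strand. Each gene is annotated as 1 uninterrupted coding exon.

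HXT6 and HXT7 are near copies, which bears on every value given for them. Over 1713 aligned coding bases they differed at 3, an identity of 99.8%. Counted from 1 at the first base of the start codon, with the HXT6 base first, the differences were T1632C, G1666A and T1677C. The stretch that holds all 3, coding bases 1621 to 1690, is shown here because it is the only part of the coding sequence where reads can be told apart, with the differing bases in capitals (R64, minus strand, chrIV:1159631-1159700 for HXT6 and chrIV:1154239-1154308 for HXT7).
HXT6: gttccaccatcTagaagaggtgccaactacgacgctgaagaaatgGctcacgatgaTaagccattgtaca
HXT7: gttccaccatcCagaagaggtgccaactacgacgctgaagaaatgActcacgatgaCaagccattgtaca
Of all stretches of 100 coding bases, 94.9% in HXT6 and in HXT7 were found elsewhere in the genome, against 3.61% in HXT3, 1.24% in HXT1, 1.19% in HXT5 and 0 in the other 5 genes. The next closest pair of the 10 was HXT1 and HXT3 at 83.0% identity, and the sensors SNF3 and RGT2 shared 68.2% over 2237 aligned bases. How the authors' counting assigned reads that match more than 1 gene is not given in the sources used here.

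Stretches of 300 bases before 3 start codons are shown because they come from the transporters that held most of the transporter RNA in either state and from HXT1, the closest relative of HXT3. The capitals mark matches to CGGANNA, the core to which Rgt1 binds, on either strand, and in HXT5 also to AGGGG, the stress response element (STRE) bound by Msn2 and Msn4. The HXT3 stretch (R64, minus strand, chrIV:1164961-1165260) covers bases 600 to 301 before the start codon, the HXT1 stretch (minus strand, chrVIII:292826-293125) bases 500 to 201, and the HXT5 stretch (minus strand, chrVIII:296708-297007) bases 560 to 261.
HXT3: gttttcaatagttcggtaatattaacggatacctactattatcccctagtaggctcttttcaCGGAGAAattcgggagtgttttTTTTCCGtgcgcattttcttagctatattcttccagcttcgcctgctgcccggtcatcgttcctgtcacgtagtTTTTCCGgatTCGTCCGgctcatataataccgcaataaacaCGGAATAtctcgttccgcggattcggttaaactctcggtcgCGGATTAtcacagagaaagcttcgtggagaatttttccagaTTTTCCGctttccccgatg
HXT1: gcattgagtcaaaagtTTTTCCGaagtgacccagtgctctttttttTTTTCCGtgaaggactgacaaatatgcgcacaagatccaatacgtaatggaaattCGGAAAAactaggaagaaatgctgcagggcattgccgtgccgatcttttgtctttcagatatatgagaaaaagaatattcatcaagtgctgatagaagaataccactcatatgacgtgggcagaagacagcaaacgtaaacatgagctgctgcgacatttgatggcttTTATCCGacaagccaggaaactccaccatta
HXT5: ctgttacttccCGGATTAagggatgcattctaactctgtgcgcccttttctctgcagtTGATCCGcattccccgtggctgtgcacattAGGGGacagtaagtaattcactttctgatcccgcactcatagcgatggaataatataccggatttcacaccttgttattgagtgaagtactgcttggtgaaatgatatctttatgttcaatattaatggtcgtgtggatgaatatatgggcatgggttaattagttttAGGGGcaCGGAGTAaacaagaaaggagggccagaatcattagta
The HXT3 stretch held 7 matches to the Rgt1 core, the HXT1 stretch 4 and the HXT5 stretch 3, and the HXT5 stretch held 2 STRE matches. The HXT3 stretch also held a STRE match, at base 558 before the start codon, which is not in capitals. As the stretches lie at different distances from the start codon, their counts are not compared. None of the marked matches in these stretches overlapped another.

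Between quiescent and log cells the family changed its makeup. HXT5, next to lowest of the set in log cells, was the highest in quiescent cells. HXT3, the highest in log cells, fell, and HXT1, HXT2 and HXT4 fell by smaller amounts. HXT10 and both sensor genes rose. HXT6 and HXT7 did not pass the test. In the edgeR quasi-likelihood test over all rows with a mean of at least 1 TPM (a length-scaled share of the library), at an adjusted p under 0.05, 4 of the 10 rose and 4 fell. Among all 5608 protein-coding genes tested, 31.8% rose and 41.0% fell, so these counts are near the background and the results lie in which members moved and how far. Over all 7305 rows tested the shares were 32.8% and 35.2%. All 10 passed the minimum, but HXT5 and HXT10, whose log means were 0.796 and 0.350 TPM, passed only through their quiescent values. In bulk RNA, fewer cells with a transcript and less of it per cell cannot be told apart.

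**Figure D1:**
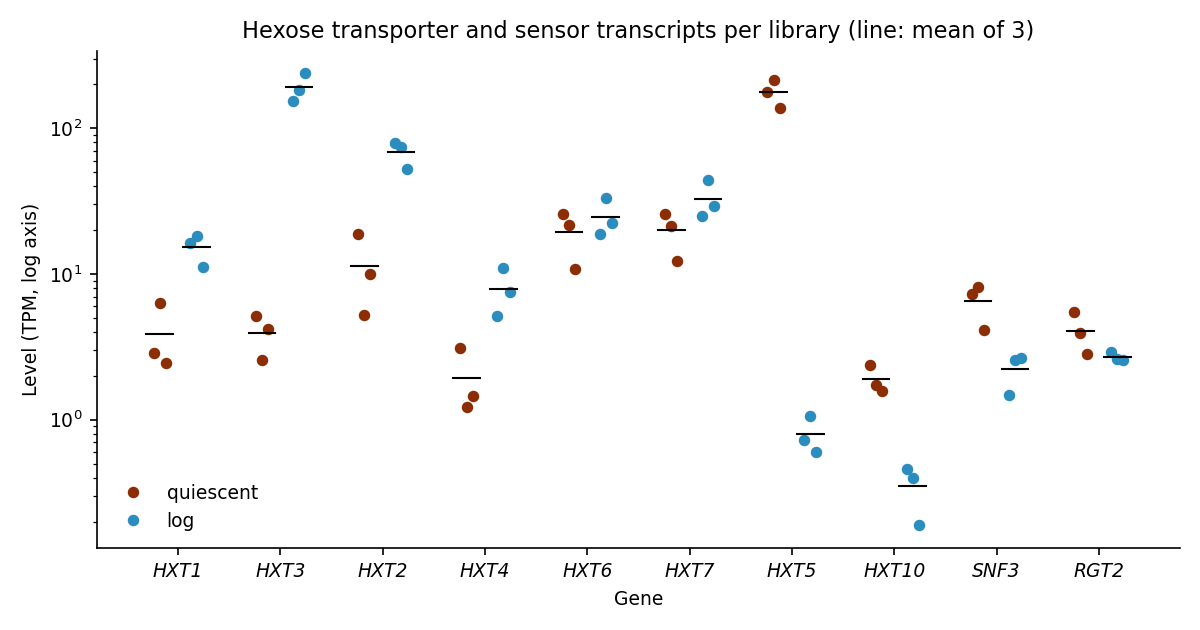
Level of each gene in every library, in TPM on a log axis, with quiescent libraries left of log libraries and a line at the mean of 3. HXT5 stood at 137 to 214 TPM in quiescent and 0.599 to 1.06 in log libraries, and HXT3 at 2.57 to 5.12 and 153 to 238.

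Of the low-affinity carriers, HXT3 had 30.8, 18.2 and 41.0 normalized CPM in quiescent libraries 1, 2 and 3, against 580, 671 and 859 in log libraries 1, 2 and 3. The groups lay far apart. HXT3 fell by 4.55 on the log2 scale (SE 0.34, adjusted p = 1.36e-06), which made log cells 23.4 times as high as quiescent cells in mean CPM. HXT1, whose protein is the carrier of abundant glucose, had 17.3, 44.6 and 24.0 normalized CPM in quiescent libraries and 62.2, 67.9 and 40.3 in log libraries. Quiescent library 2 lay above log library 3, so the groups overlapped. HXT1 fell by 0.98 (SE 0.34, adjusted p = 0.0245), and this call was lost when quiescent replicate 1 or 3 or log replicate 1 or 2 was left out (log2 fold changes of -0.72, -0.82, -0.91 and -0.84, adjusted p = 0.0830, 0.101, 0.0578 and 0.0819). The level of HXT3 over that of HXT1 within a library, as a log2 ratio of TPM, was 0.84, -1.29 and 0.78 in quiescent libraries and 3.23, 3.31 and 4.42 in log libraries (exact permutation p = 0.1, two-sided, the smallest that 3 against 3 allow; 0.11 adjusted over 11 sums and ratios).

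The carriers of higher affinity with sequences of their own also fell. HXT2 had 109, 35.1 and 92.8 normalized CPM in quiescent libraries and 285, 262 and 181 in log libraries. Quiescent library 2 was the lowest by far, and the groups did not overlap. HXT2 fell by 1.62 (SE 0.37, adjusted p = 0.00309). HXT4 had 19.1, 8.73 and 14.5 normalized CPM in quiescent libraries, against 19.7, 41.0 and 27.5 in log libraries. The highest quiescent and the lowest log library almost met. HXT4 fell by 1.06 (SE 0.33, adjusted p = 0.0161), a call lost without log replicate 2 (-0.75, adjusted p = 0.0820). HXT1 and HXT2 varied more among quiescent libraries, with coefficients of variation of 49.8% and 49.1%, than among log libraries, with 25.7% and 22.4%. Quiescent library 2 was the highest of its group for HXT1 and the lowest for HXT2, HXT3 and HXT4.

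HXT6 had 156, 154 and 106 normalized CPM in quiescent libraries and 71.1, 122 and 81.7 in log libraries. HXT7 had 157, 152 and 121 in quiescent libraries and 95.2, 163 and 107 in log libraries. The groups overlapped for both genes, and log library 2 was the highest log library of each. The log2 fold change was 0.60 for HXT6 (SE 0.25, adjusted p = 0.0559) and 0.24 for HXT7 (SE 0.23, adjusted p = 0.381). Since reads of the pair can rarely be told apart, their summed counts were also tested and gave 0.41 (SE 0.25, adjusted p = 0.173). The sign of all 3 values turned on the TPM scale, where limma on log2(TPM + 1) gave -0.38 for HXT6, -0.71 for HXT7 and -0.57 for the sum, none of which passed. HXT7 passed upward with a minimum of 10 TPM (0.71, adjusted p = 0.0293). HXT6 passed upward in 6 alternatives, among them the fit without quiescent replicate 3 (0.81, adjusted p = 0.0186) and the one that left out log replicate 2 (0.86, adjusted p = 0.0147). The sum passed upward without log replicate 2 (0.67, adjusted p = 0.0442). The log2 ratio of HXT6 to HXT7 within a library was -0.01, 0.02 and -0.20 in quiescent libraries and -0.42, -0.41 and -0.39 in log libraries, without overlap (exact permutation p = 0.1, adjusted 0.11).

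HXT5 had 1106, 1581 and 1403 normalized CPM in quiescent libraries, against 2.87, 4.08 and 2.26 in log libraries. The groups lay further apart than for any other of the 10 genes. HXT5 rose by 8.80 (SE 0.36, adjusted p = 1.16e-07), or 444-fold in mean CPM. Since the minimum admitted HXT5 through its quiescent values, a test could only have found it higher there. The log values rest on 41, 49 and 31 reads, with exact 95% Poisson intervals of 29.4 to 55.6, 36.3 to 64.8 and 21.1 to 44.0 reads, which cover counting error only. The change was 8.68 to 9.05 with any single library left out. Next to HXT5 on chromosome VIII, with 2043 bases between them, lies HXT1, whose quiescent mean was 28.6 ± 14.3 normalized CPM, against 56.8 ± 14.6 in log cells (SD, n = 3 each). The fitted changes of these neighbours had opposite signs. The minimum fixed that of HXT5, however, and HXT1 overlapped between the groups and lost its call in several fits. In the cluster on chromosome IV, HXT3 fell, while HXT6, 1636 bases away, did not pass.

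HXT10, a further member of the transporter family, had 13.9, 11.8 and 14.9 normalized CPM in quiescent libraries and 1.68, 1.42 and 0.656 in log libraries. All quiescent libraries were higher. It rose by 3.42 (SE 0.37, adjusted p = 1.79e-05). Its log values rest on 24, 17 and 9 reads, and its level was low, at 1.90 ± 0.430 TPM in quiescent cells (SD, n = 3). The limit that the minimum sets on the direction, given for HXT5, holds for HXT10 too.

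The sensor genes rose together. SNF3, the sensor for scarce glucose, had 68.8, 89.0 and 63.1 normalized CPM in quiescent libraries and 8.68, 14.7 and 14.8 in log libraries, with no overlap. It rose by 2.54 (SE 0.25, adjusted p = 1.05e-05). RGT2, the sensor for abundant glucose, had 44.5, 37.2 and 36.9 in quiescent libraries and 14.8, 12.9 and 12.5 in log libraries, again with no overlap. It rose by 1.56 (SE 0.19, adjusted p = 3.51e-05), but did not pass on the TPM scale (0.42, adjusted p = 0.136), where its groups overlapped. SNF3 passed on that scale (1.20, adjusted p = 0.000703). The log2 ratio of SNF3 to RGT2 in TPM was 0.42, 1.05 and 0.56 in quiescent libraries, against -0.99, -0.03 and 0.04 in log libraries, so that SNF3 was above RGT2 in 3 of 3 quiescent libraries and in 1 of 3 log libraries. The difference of 1.00 in mean ratio reached the smallest p of the design (exact permutation p = 0.1, adjusted 0.11). Log library 1 had the lowest ratio, and without it the difference was 0.67.

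The size of each change depended on the scaling between libraries. Over the 5608 genes, the median change (log2) was -0.21 with edgeR and TMM, -0.15 with median-of-ratios size factors, -0.01 with TMM from protein-coding genes, -0.45 with total-count scaling and -0.98 for limma on log2(TPM + 1). Relative to that median, HXT3 stood at -4.35 to -4.31 over these 5 scalings, HXT2 at -1.65 to -1.39, HXT4 at -0.85 to -0.62 and HXT1 at -0.82 to -0.75. HXT7 stood at 0.27 to 0.47 above the median gene and HXT6 at 0.60 to 0.84. RGT2 stood at 1.40 to 1.79 above it, SNF3 at 2.18 to 2.77, HXT10 at 2.08 to 3.64 and HXT5 at 7.59 to 9.02, with the low ends from log2(TPM + 1), a scale that understates the change of low genes. On the TPM scale 3 members rose and 4 fell, beside 14.2% and 60.1% of all genes.

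**Figure D2:**
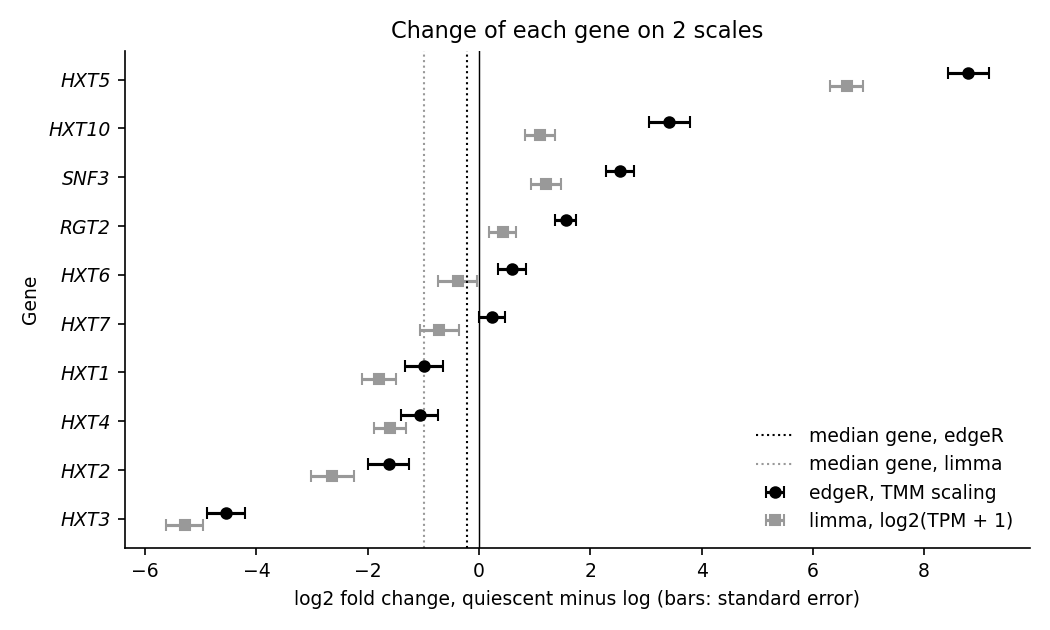
Log2 fold change, quiescent minus log, of each gene with its standard error, from edgeR with TMM scaling (circles) and limma on log2(TPM + 1) (squares). Dotted lines mark the median gene of each, -0.21 and -0.98, and HXT6 and HXT7 lie on opposite sides of 0 in the 2 fits.

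Shares within a library do not depend on scaling. Of the summed TPM of the 8 transporters, HXT5 held 67.7%, 78.1% and 76.3% in quiescent libraries, against 0.243%, 0.291% and 0.166% in log libraries. HXT3 held 1.97%, 0.936% and 2.33% in quiescent and 51.3%, 50.0% and 65.7% in log libraries. The leading carrier of 1 state was thus a minor part of the other. HXT2 held 4.90% ± 2.74 in quiescent and 20.5% ± 5.95 in log libraries, and HXT1 1.58% ± 0.626 and 4.53% ± 1.28 (SD, n = 3 each). The pair HXT6 and HXT7 together held 16.1% ± 3.56 in quiescent and 16.7% ± 3.84 in log libraries, and these overlapped (exact permutation p = 0.8). The low-affinity carriers HXT1 and HXT3 held 3.33% ± 0.322 in quiescent cells and 60.2% ± 7.50 in log cells, and the 5 carriers of high or moderate affinity 95.9% ± 0.377 and 39.7% ± 7.46. Of that same total, HXT5 included, HXT2, HXT4, HXT6 and HXT7 together held 28.3%, 18.1% and 19.1% in quiescent libraries. In log libraries they held 42.8%, 44.6% and 31.0%. A large share of HXT5 lowers the other shares by construction, and shares of a total without HXT5 were not computed. These carriers were above the low-affinity class in each quiescent library and below it in each log library. Of the 11 shares compared, the 8 other than HXT6, HXT7 and their sum did not overlap between the states, each with the smallest possible exact permutation p of 0.1 (0.138 adjusted over the 11). In normalized CPM, 33.8% of the 5608 genes lay wholly higher and 44.0% wholly lower in quiescent libraries, so nothing is read from this count. The shares also depend on each other, as they add up to the whole and the classes and the pair are sums of genes.

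**Figure D3:**
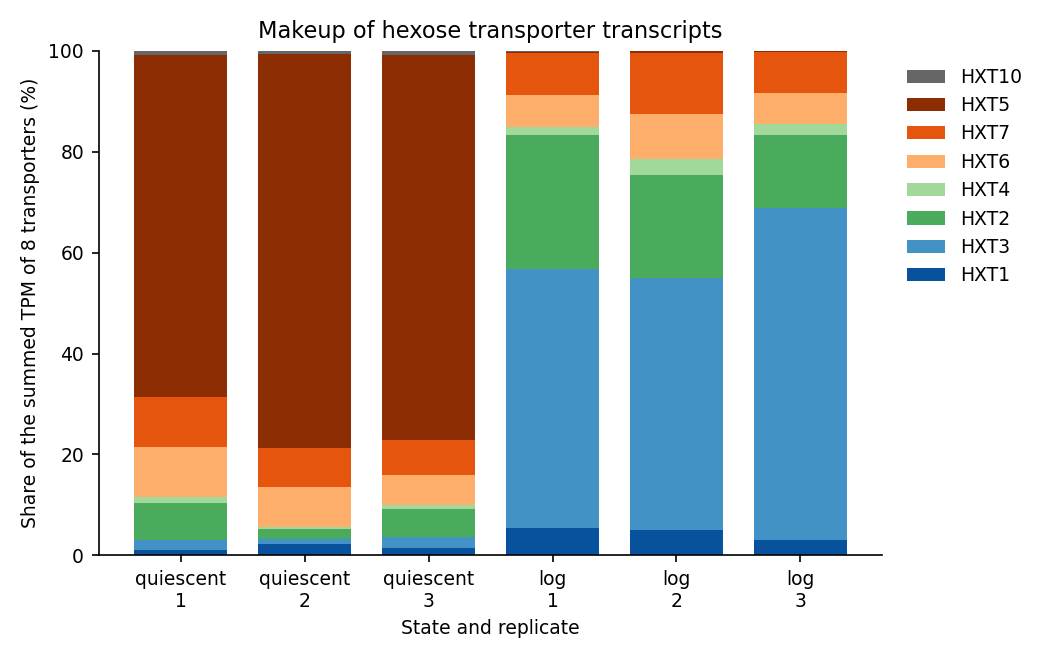
Share of each transporter in the summed TPM of the 8, in percent, for each quiescent (left) and log (right) library. HXT5 fills 67.7% to 78.1% of the quiescent bars, and HXT3 50.0% to 65.7% of the log bars.

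The summed level of the 8 transporters moved less than its makeup, and its direction depended on the unit. It was 260, 274 and 180 TPM in quiescent libraries, against 299, 364 and 362 TPM in log libraries. As normalized CPM the sum was 1811 ± 199 in quiescent and 1250 ± 115 in log cells (SD, n = 3 each). As a share of the TPM of all protein-coding genes it was 0.338% ± 0.0617 in quiescent and 0.142% ± 0.0193 in log cells. The groups did not overlap in any of these 3 units (exact permutation p = 0.1 each, adjusted 0.11).

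In TPM, which allows levels of different genes to be compared, quiescent cells ranked HXT5 first at 176 ± 38.4 (SD, n = 3), 43rd of the 6007 genes. HXT7 (19.9 ± 6.96), HXT6 (19.4 ± 7.75) and HXT2 (11.4 ± 6.96) followed, then SNF3 (6.52 ± 2.09), RGT2 (4.07 ± 1.35), HXT3 (3.96 ± 1.29), HXT1 (3.86 ± 2.11), HXT4 (1.93 ± 1.03) and HXT10. Only the step from HXT5 to HXT7 was free of overlap there, and each later neighbour overlapped the next. In log cells HXT3 was first at 191 ± 43.0, 232nd of the genes. HXT2 (68.8 ± 14.1), HXT7 (32.8 ± 9.89), HXT6 (24.8 ± 7.44), HXT1 (15.3 ± 3.74), HXT4 (7.87 ± 2.92), RGT2 (2.70 ± 0.193), SNF3 (2.22 ± 0.647), HXT5 (0.796 ± 0.238) and HXT10 (0.350 ± 0.143) followed. Of the 9 steps between neighbours in log cells, those from HXT7 to HXT6 and from RGT2 to SNF3 overlapped and the others did not.

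By distance over the 6 libraries on the log2(TPM + 1) scale, the protein-coding genes most like HXT5 were the peroxisomal catalase gene CTA1 (distance 0.81), PHM7 (1.11) and DPC7 (1.12), against a median distance of 10.57 over all genes. CTA1 had 195 ± 64.2 TPM in quiescent and 0.791 ± 0.226 in log cells (SD, n = 3 each). Those most like HXT3 were DED81, an asparaginyl-tRNA synthetase gene (0.66), ARO4, of aromatic amino acid synthesis (0.68), and RPS26B, of the small ribosomal subunit (0.72), against a median of 8.27. DED81 had 4.27 ± 1.28 TPM in quiescent and 187 ± 21.1 in log cells.

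Genes of the glucose induction pathway, which carries the sensors' signal to the transporter promoters, moved both ways. Of 11 tested, 4 rose and 6 fell, with a median log2 fold change of -0.45 beside -0.21 for all genes. On the TPM scale 1 rose and 7 fell. As for the 10 members, such counts stand beside 31.8% risen and 41.0% fallen among all genes with edgeR and 14.2% and 60.1% on the TPM scale, and with so few genes nothing is read from them. MTH1 and STD1, which encode the paired corepressors that the signal removes, went in opposite directions. MTH1 had 78.8, 64.9 and 67.2 normalized CPM in quiescent and 13.7, 12.7 and 7.87 in log libraries, and rose by 2.62 (SE 0.24, adjusted p = 5.43e-06). STD1 had 4.19, 5.50 and 7.83 in quiescent and 21.4, 19.2 and 22.8 in log libraries, and fell by 1.85 (SE 0.27, adjusted p = 0.000145). At 0.968 TPM in quiescent cells, STD1 passed the minimum only through its log values, so a test could only have found it lower in quiescent cells.

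The DNA-binding repressor gene RGT1 rose by 1.05 (SE 0.18, adjusted p = 0.000460), but limma on TPM put it at 0.04 (adjusted p = 0.902). MIG1, the repressor of glucose-repressed genes, rose by 1.53 (SE 0.23, adjusted p = 0.000168), and limma on TPM put it at 0.49 (adjusted p = 0.134). Its relative MIG2 fell by 2.10 (SE 0.32, adjusted p = 0.000230). The corepressor gene TUP1 had 24.4 ± 3.99 normalized CPM in quiescent and 175 ± 6.90 in log cells (SD, n = 3 each), and fell by 2.84 (SE 0.19, adjusted p = 6.65e-07). CYC8, the partner of TUP1, fell by 1.65 and the casein kinase gene YCK2 by 1.39. The calls of GRR1 (0.64), of the ubiquitin ligase, and YCK1 (-0.45), the other kinase gene, were lost in several alternatives and turned sign in some.

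The next list held 6 genes for the endocytosis of membrane transporters in general, which encode arrestin-like adaptors and their ubiquitin ligase. Of these, 4 rose and 2 fell, with a median of 1.03, beside the 31.8% and 41.0% of all genes. On the TPM scale 2 rose and 2 fell, beside 14.2% and 60.1%. CSR2, whose product directs the endocytosis of high-affinity carriers, had 278, 263 and 350 normalized CPM in quiescent and 14.1, 16.1 and 14.4 in log libraries and rose by 4.32 (SE 0.22, adjusted p = 1.51e-07). ECM21, another adaptor gene, rose by 3.16 (SE 0.20, adjusted p = 4.76e-07) and ART5 fell by 2.37 (SE 0.26, adjusted p = 1.95e-05). ART5, at 0.470 TPM in quiescent cells, passed the minimum only through its log values, which fixed the direction. ROD1 and ROG3 each rose by 1.03, calls lost on the TPM scale, where both lay at 0.02. The ligase gene RSP5 fell by 0.92 (SE 0.19, adjusted p = 0.00190).

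At the next step of sugar use, HXK2, the main hexokinase of growth on glucose, fell by 5.16 (SE 0.31, adjusted p = 3.35e-07) and GLK1, the glucokinase, rose by 2.03 (SE 0.21, adjusted p = 1.28e-05), while HXK1 (0.17) and EMI2 (-0.59) did not pass. The median of these 4 was -0.21. With 1 risen and 1 fallen, and 1 and 2 on the TPM scale, they stand beside the same shares of all genes. Of 9 other sugar porters, 7 were tested, and 4 rose and 1 fell, with a median of 1.93, beside 31.8% and 41.0% of all genes. On the TPM scale 4 rose and 2 fell, beside 14.2% and 60.1%. STL1, a glycerol proton symporter, rose by 4.31 (SE 0.32, adjusted p = 1.20e-06), VVS1 by 3.70 (SE 0.24, adjusted p = 4.97e-07) and the maltose permease gene MAL31 by 2.77 (SE 0.22, adjusted p = 2.09e-06). MAL11, a second such gene, rose by 1.93 (SE 0.24, adjusted p = 5.61e-05), and the inositol transporter gene ITR2 fell by 1.24 (SE 0.18, adjusted p = 0.000161). STL1, at 0.373 TPM in log cells, passed the minimum only through its quiescent values, which fixed the direction, and rests on 19, 18 and 18 reads in log libraries. The maltose genes have close copies, so their reads may be shared.

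**Figure D4:**
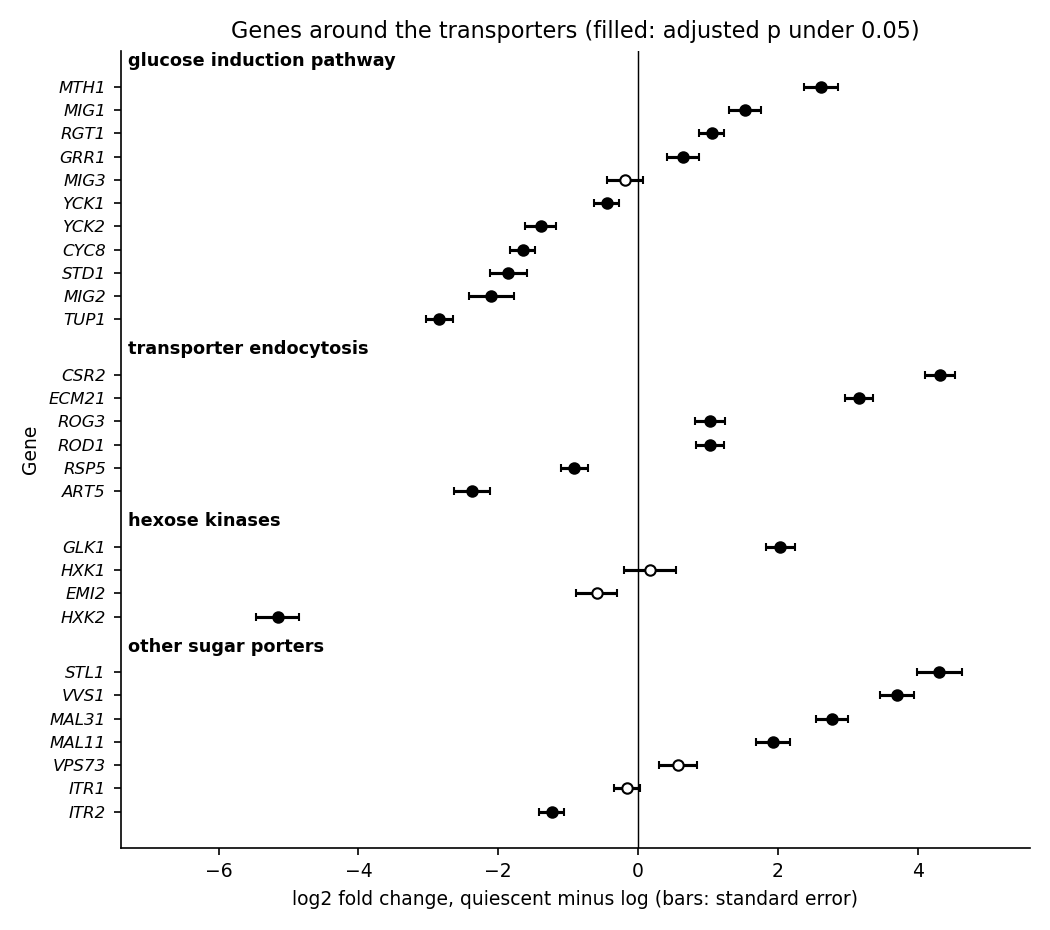
Log2 fold change, quiescent minus log, with its standard error, for tested genes of 4 lists. Filled points passed the edgeR test, from CSR2 at 4.32 to HXK2 at -5.16, and open points did not.

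The remaining 10 hexose transporter genes, GAL2, HXT8, HXT9 and HXT11 to HXT17, were all below the minimum, at means of 0.260 to 0.687 TPM, and none was tested. Their counts ran from 8 to 87 reads in quiescent and from 4 to 34 in log libraries. GAL2, the galactose carrier, was the highest, with 87, 60 and 68 reads in quiescent and 17, 18 and 26 in log libraries. All 10 together had 261, 372 and 253 reads in quiescent and 176, 190 and 148 in log libraries, fewer than HXT1 alone in each log library. In quiescent libraries HXT1 had 173, 511 and 224 reads, and there the 10 together were not always fewer.

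The 1000 bases before each start codon were searched on both strands for the motifs CGGANNA (Rgt1), AGGGG (STRE), CCCCAC and CCCCGC (2 forms of the site of Mig1), CCAAT (the Hap complex) and CTTCC (Gcr1). Such a window can reach into a neighbouring gene. Rgt1 matches numbered 9 before HXT3, a count reached by 0.017% of 5996 genes, and 8 before HXT1, reached by 0.033%. HXT5 had 4, reached by 3.49%, HXT2, HXT4 and HXT6 had 3 each, HXT7 had 2, and HXT10, SNF3 and RGT2 had none. At least 1 match lay before 7 of the 10 members and 66.5% of all genes.

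STRE matches numbered 5 before HXT6 and 4 before HXT7, counts reached by 0.634% and 2.24% of genes. HXT5 had 2, reached by 21.0%, and the motif lay before 8 of the 10 members and 55.0% of all genes. CCCCAC lay before 7 members and 17.1% of genes, CCCCGC before 3 and 10.6%, CCAAT before 9 and 88.8%, and CTTCC before 9 and 88.7%. An Rgt1 match before HXT3 and a STRE match before RGT2 each overlapped a CTTCC match. In the nearest 300 bases alone, the Rgt1 motif lay before HXT1, HXT4 and HXT5 and 26.9% of genes. There AGGGG lay before 3 members and 22.2% of genes, CCCCAC before 5 and 4.57%, and CCCCGC before 0 and 3.0%. CCAAT lay before 4 members and 41.8% of genes in that window, and CTTCC before 1 and 45.5%. Gene copies that arose by duplication can share such letters, and a match describes the sequence, not a bound site.

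**Figure D5:**
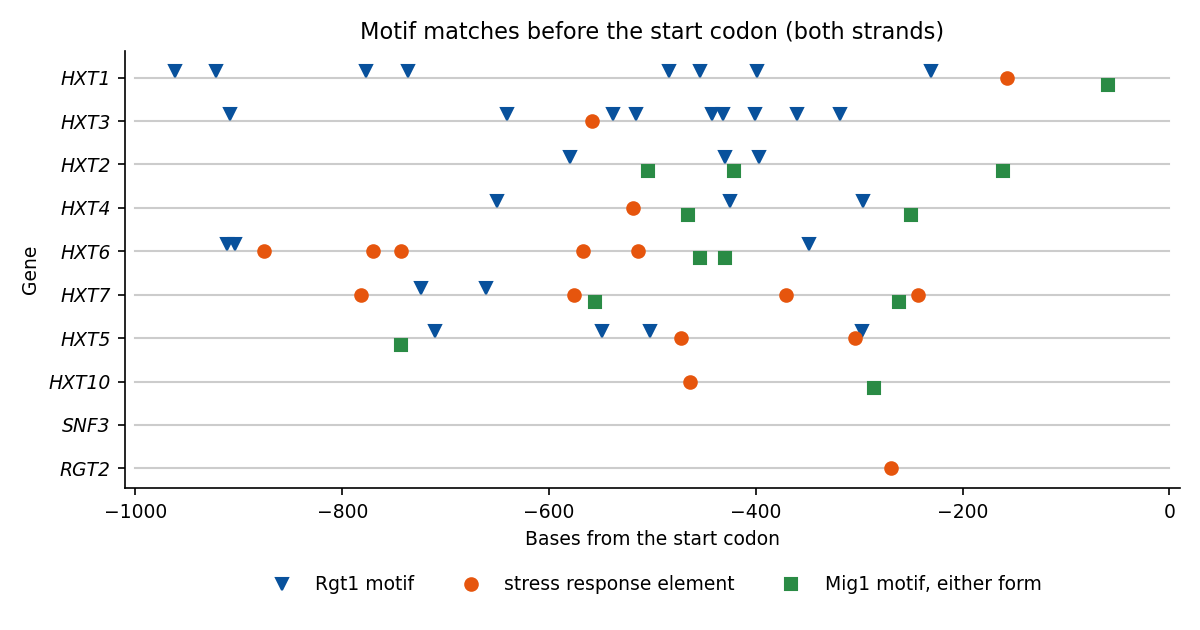
Positions of Rgt1, STRE and Mig1 motif matches in the 1000 bases before each start codon, on either strand, with the start codon at 0. HXT3 has 9 and HXT1 8 Rgt1 matches, and HXT6 has 5 STRE matches.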

How the data were processed

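The authors deposited raw counts per feature with feature lengths, per the file headers. Per the labels' protocols, total RNA with added ERCC spike-ins was depleted of ribosomal RNA and read on an Ion Proton. Per the submitters' processing notes, reads were placed on R64. No aligner, counter, read length or strand setting is named in the sources used here. A further 6 columns of per-sample values were not used. Of 9891 rows, 6048 matched locus tags of the R64 annotation, and 6012 of these had a length 1 base below the reference span.

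TPM was computed here from counts and lengths. Rows with a mean of at least 1 TPM (7305, of which 5608 were protein-coding genes) were tested by edgeR 4.0.16 (R 4.3.3; quasi-likelihood, two-sided, TMM, Benjamini-Hochberg over all rows, no covariate). The biological coefficient of variation was 0.264. Standard errors were derived from each log2 ratio and its F value. Shares, sums and ratios were compared by exact permutation (SciPy 1.17.1). Likeness is Euclidean distance. Sequences and coding identities come from the RefSeq R64 genome (Biopython 1.88), and promoter windows were cut from that genome in place of a promoter table. The edgeR procedure was tested on simulated data.

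All 10 members were named, with up to 4 called genes of each other list by size of change, and MTH1, STD1, RGT1, MIG1, MIG2 and GAL2 in any case. ROD1, RSP5, ITR2, YCK1, YCK2, GRR1, CYC8 and the genes that did not pass are named beyond that rule. Members, lists and affinity classes were chosen with earlier results of these data known. Alternatives were other scalings, filters of none and 10 TPM, DESeq2 1.42.0, limma 3.58.1 on log2(TPM + 1) and log2(TPM + 0.1), the replicate number as a block, HXT6 and HXT7 summed or left out, and each library left out. Normalized CPM and the share of protein-coding TPM for the summed transporters, the share of HXT2, HXT4, HXT6 and HXT7 together, and the 300-base window were added after the data were seen.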

Additional observations from a re-analysis of the deposited data

How the results depend on the processing

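The directions and calls of HXT2, HXT3, HXT5, HXT10 and SNF3 were the same under every alternative that could be run for them. For HXT5 and HXT10 the minimum fixed the direction wherever it was applied, and only the fit without a filter was free of it. The minimum of 10 TPM also fixed the direction of HXT3. At 3.96 TPM in quiescent cells, HXT3 passed that minimum only through its log values. Of the 10 members, 3 to 5 rose and 2 to 4 fell over all alternatives. With a minimum of 10 TPM, which left 5 members, 3 rose and 2 fell. Leaving out single libraries gave 4 to 5 risen and 2 to 4 fallen, and without log replicate 2 only HXT2 and HXT3 fell. Shares of all genes called were computed only for the main fit and limma on log2(TPM + 1), so nothing is read from these counts. With TMM computed on protein-coding genes alone HXT1 no longer passed (-0.78, adjusted p = 0.0591). The sum of HXT6 and HXT7 passed upward with TMM on those genes (0.61), with 10 TPM (0.87) and without log replicate 2 (0.67), and ran from 0.25 to 0.67 as libraries were left out. It was negative on the TPM scale (-0.57 with a pseudocount of 1 and -0.59 with 0.1), as were HXT6 (-0.38 and -0.40) and HXT7 (-0.71 and -0.74). For these reversals the cause was not tested.

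The summed transporter level was -0.54 as a mean difference in log2 TPM. It turned positive as a share of counts (0.29), as normalized CPM (0.53) and as a share of protein-coding TPM (1.24). As a share of counts the groups overlapped. Without HXT6 and HXT7 the shares of the other transporters grow by construction, and the difference in share became 87.9 percentage points for HXT5, -68.2 for the low-affinity class and -64.7 for HXT3. With all 8 transporters these differences were 73.8, -56.9 and -53.9, and leaving out libraries gave 71.8 to 77.0, -59.5 to -52.6 and -56.8 to -48.9, and gave -0.65 to -0.35 for the summed level and 0.67 to 1.18 for the sensor ratio.

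Among other genes, the sign turned for GRR1 on the TPM scale (-0.32 and -0.39), YCK1 with 10 TPM (0.032), MIG3 with TMM on protein-coding genes (0.020), VPS73 on the TPM scale (-0.36 and -0.45), ITR1 with TMM on protein-coding genes (0.045) and with 10 TPM (0.33), and HXK1 with total-count scaling (-0.048) and on the TPM scale (-0.74 and -0.79). As libraries were left out, ITR1 ran from -0.25 to 0.045, positive without log replicate 3. HXK1 ran from -0.046 to 0.65, negative without quiescent replicate 2 (-0.045) and without log replicate 3 (-0.046). MIG3, HXK1, ITR1 and VPS73 did not pass the test with the main settings. In limma on log2(TPM + 1), MIG3 (-0.82, adjusted p = 0.00512) and ITR1 (-1.12, adjusted p = 0.00407) passed downward. VPS73 passed upward with TMM on protein-coding genes (0.78, adjusted p = 0.0275) and without quiescent replicate 1 (0.73, adjusted p = 0.0438). EMI2, not called with the main settings either, passed downward in 6 of 14 alternatives.

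Replicate numbers gave no sign of pairing the libraries, and whether libraries of the same number shared a culture or batch was not tested. Deviations from the group mean correlated at 0.10, -0.14 and -0.13 between same-numbered quiescent and log libraries, and at -0.14 to 0.22 between differently numbered ones. With the replicate number as a block, 4 members rose and 4 fell, and the sum of HXT6 and HXT7 was at 0.43 (adjusted p = 0.165). The share of all genes called with the block was not computed. The block lost the calls of YCK1 (adjusted p = 0.0779) and GRR1 (adjusted p = 0.0511), passed EMI2 (adjusted p = 0.0293), and changed no other call of the genes named. The alternative with the deposited TPM columns was not run. Depth limits the log values of HXT5 and HXT10, which rest on under 50 reads per library.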

Other observations

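The near-identical genes HXT15 and HXT16, which differ at 2 of 1704 coding bases, were both highest in quiescent library 2. Of their stretches of 100 coding bases, 87.5% were found elsewhere in the genome, so their reads may be shared and the 2 are not separate observations. HXT15 had 10, 86 and 11 reads in quiescent libraries 1, 2 and 3 and 17, 7 and 12 in log libraries, and HXT16 had 15, 75 and 10 in quiescent and 12, 6 and 6 in log libraries. Both were under the minimum of 1 TPM and were not tested. The same library was the highest of its group for HXT1 and HXT5 and the lowest for HXT2, HXT3 and HXT4.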
